A study of Mus musculus with 6 samples.

Results

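The genes described here encode the nuclear subunits of the mitochondrial respiratory chain and of ATP synthase, together with the complex I assembly factors whose names start with Ndufaf. They were chosen by name: a single gene symbol in the array platform's annotation that starts with Nduf, Uqcr, Cox4 to Cox8 or Atp5, or that is Sdha, Sdhb, Sdhc or Sdhd. Of 90 genes with such a symbol, 84 reached a signal of 100 on at least 1 array, and each is represented by its brightest probe set. They stand among 9678 named genes and 21762 probe sets that reached 100. By complex they are 42 genes of complex I, 4 of complex II, 8 of complex III, 13 of complex IV and 17 of complex V.

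Expression was measured on 6 Affymetrix Mouse 430 2.0 arrays of wild type (WT) pre-B cell lines, 3 after 1 Gy and 3 after 0 Gy of ionizing radiation. The irradiated cells received 1 Gy at 0.72 Gy per minute and were collected 2 hours later, and the mock-irradiated cells were handled in parallel at 0 Gy. All cells, irradiated and mock, had been transformed with the v-Abl kinase, came from mice with an Eμ-Bcl2 transgene (Bcl2, an inhibitor of apoptosis, under an enhancer active in B lineage cells), and had spent 48 hours in 3 μM STI-571, an Abl kinase inhibitor that holds them before S phase. The same 3 independently derived lines were used at both doses, numbered 1 to 3 here, so that each irradiated array has a mock partner. Values are signals in arbitrary units of a probe set, and changes are log2 differences of 1 Gy over 0 Gy.

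The respiratory chain passes electrons from NADH through complex I and from succinate through complex II to coenzyme Q, then through complex III and cytochrome c to complex IV, which reduces oxygen. The proton gradient built on the way drives complex V, the ATP synthase. Most subunits are encoded in the nucleus, translated in the cytosol and imported, while a small core of membrane subunits is encoded by mitochondrial DNA.

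Signals across the arrays were alike in scale: the median probe set lay between 51.6 and 59.4, and between 41.7% and 43.8% of probe sets reached 100. Markers of the pre-B stage were present, with 9 of 9 such genes on the array tested and a summed signal of 57613 to 79806 on irradiated arrays and 75734 to 85207 on mock arrays. Among them, Rag1 and Rag2, the V(D)J recombinase genes, fell in the limma fit with dose only, and Dntt, the terminal transferase gene, fell only once line was added as a block (a change of -0.94, with an adjusted p of 0.687 before and 0.0198 after). None of the 5 T cell, 3 stromal or 1 erythroid markers on the array reached 100, and of the 5 myeloid markers only the dim Itgam and Csf1r did, with changes of 0.87 and -0.88 (adjusted p = 0.0680 and 0.379 with dose only, 0.0227 and 0.0478 with the block). All 3 plasma cell markers reached 100, with a summed signal of 3224 to 5010.5 on irradiated arrays and 5158.0 to 6421 on mock arrays. Of these, Xbp1 and Sdc1 fell with the block alone, by 0.78 and 0.65 on the log2 scale (adjusted p = 0.0443 and 0.0461), and Prdm1 had a change of 0.42 (adjusted p = 0.259 with the block). The 3′ to 5′ signal ratio of the Actb control probe sets, a measure of RNA integrity, was 1.26 to 1.38 on irradiated arrays and 1.4003 to 1.5006 on mock arrays, groups that did not overlap. The same ratio for Gapdh was 0.785 to 0.800 on irradiated arrays and 0.768 to 0.9004 on mock arrays. The part of these markers and of the RNA ratio in the results that follow was not tested.

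As a group, the respiratory chain genes differed little in signal 2 hours after irradiation. Their summed signal was 516518 ± 16774.9 in irradiated cells and 522456 ± 36780.6 in mock cells (SD, n = 3 each). In a limma fit with dose as the only factor, 0 of the 84 passed an adjusted p of 0.05, where 4.48% of all probe sets tested did (1.93% higher and 2.55% lower), and at an unadjusted p of 0.05 there were 2 higher and 8 lower, against 23% of all probe sets in either direction. With the cell line added to the limma fit as a block, 1 member (Ndufb1) was called higher and 4 (Ndufaf7, Ndufv3, Ndufs5 and Ndufa8) were called lower, where 6.78% of all probe sets were called higher and 11.5% lower. At an unadjusted p of 0.05 that fit gave 4 higher and 7 lower, against 36.6% of all probe sets in either direction. The 5 called members belong to complex I. In bulk samples, fewer cells with a transcript and less of it per cell cannot be told apart, and signals are relative to the array's total.

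The fitted changes of the 84 members ran from -0.82 to 0.67, with a median of -0.02, against a median of -0.06 over all probe sets tested. The 95% interval of the dose-only fit lay inside a 2-fold change either way for 76 of 84 members (55.5% of all probe sets) and inside a 1.5-fold change for 51 (19.9%). With the line as a block these were 81 (69.9% of all) and 64 (33.2%). For most of these genes the arrays therefore bound the change to less than 2-fold. Their median standard error was 0.15 on the log2 scale, against 0.22 for all probe sets. The members are bright, and of the 4288 tested genes averaging 1000 or more, 74.5% had the dose-only interval inside 2-fold, with a median standard error of 0.17. Of the 76 members that bright, 73 (96.1%) did, with a median of 0.15. In the sense of sign, 25 members were lower in irradiated cells of all 3 lines (34.5% of all probe sets were) and 14 were higher in all 3 (24.7% were). By non-overlap of the arrays, 13 members had all 3 irradiated arrays below all 3 mock arrays (17.1% of all probe sets) and 4 had them above (12.8%).

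**Figure D1:**
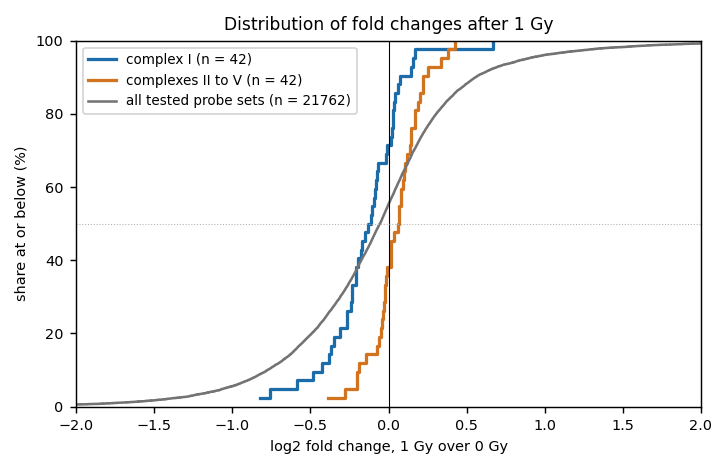
Cumulative share (%, vertical axis) of genes or probe sets at or below each log2 fold change of 1 Gy over 0 Gy (horizontal axis), for 42 complex I genes, 42 genes of complexes II to V and all 21762 probe sets tested. Both curves of respiratory chain genes are steeper than that of all probe sets, and the complex I curve crosses 50% at -0.12, the curve of complexes II to V at 0.06.

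The complexes did not share 1 median. Complex I had a median log2 change of -0.12 over its 42 genes, against 0.06 over the 42 genes of complexes II to V. The median was -0.11 over all 9678 tested genes, which is close to complex I, and 0.003 over the 4288 averaging 1000 or more, which is not. The median of complex I was negative in each line, at -0.21, -0.09 and -0.08 in lines 1, 2 and 3. Complex III had a median of 0.09 and complex IV one of 0.11, and for both the value was largest in line 3, at 0.23 and 0.24. Complex II stood at 0.01 and complex V at 0.02. The median of complex I minus that of complexes II to V was -0.18, -0.12 and -0.28 in lines 1, 2 and 3. Quantile normalization gave -0.11, -0.12 and -0.13 for the same differences, and moved the medians of complexes II, III, IV and V to -0.03, -0.00, 0.01 and -0.11, so the sign of complexes II, III and V depended on the scaling. Complex I stayed negative under that scaling (-0.18) and under a common median (-0.07). No test was applied to these medians, since genes measured on the same arrays are not replicates.

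**Figure D2:**
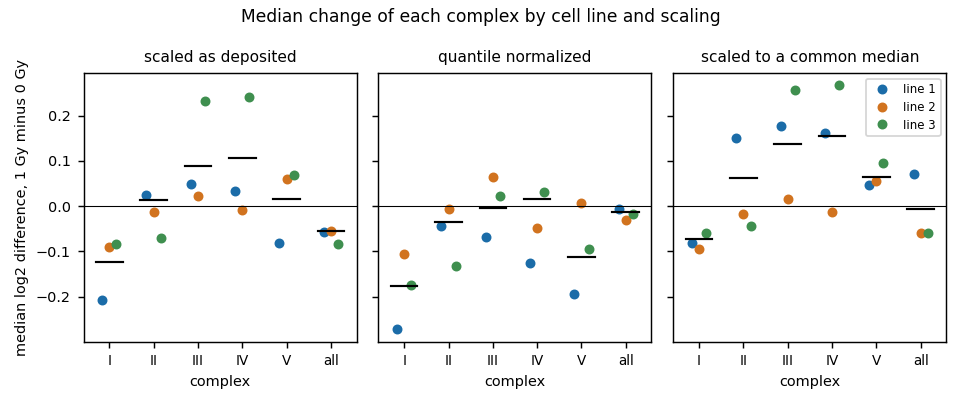
Median log2 difference in signal, 1 Gy minus 0 Gy (vertical axis), for complexes I to V and for all probe sets tested (horizontal axis), under 3 scalings of the arrays, with 1 point per cell line and a bar at the median of the fitted changes over all 3 lines. Complex I lies below 0 in every line and panel, while complexes III and IV are highest in line 3 as deposited (0.23 and 0.24) and stand at -0.00 and 0.01 over all lines after quantile normalization.

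Complex I, the NADH dehydrogenase, held 20 of the 25 members that were lower in all 3 lines, which is 47.6% of its 42 genes, and 5 (11.9%) that were higher in all 3. Over all 9678 tested genes, each by its brightest probe set, these shares were 41.3% and 23.7%. Among the 4288 tested genes averaging 1000 or more they were 33.6% and 32.8%. The median log2 signal was 11.8 for complex I, 11.2 for these bright genes and 9.67 for all genes. The share of lower genes in complex I was thus nearer to that of all genes than to that of bright genes, and was not tested. The irradiated arrays lay wholly below the mock arrays for 12 of its genes and wholly above for 2 (Ndufb1 and Ndufaf1), where 17.1% and 12.8% of all probe sets did, and 1989 and 1194 of the 9678 genes. Among the 6 core subunits, which carry the flavin and the iron-sulfur clusters, the median change was -0.15. The core subunits Ndufv1, Ndufv2 and Ndufs7 were lower in all 3 lines, and Ndufs1, Ndufs3 and Ndufs8 were mixed. Among the 28 accessory subunits, 15 were lower and 2 higher in all 3 lines, with a median of -0.14. Of the 8 assembly factors, which help to build the complex and are not part of it, 2 were lower and 3 higher in all 3 lines, with a median of 0.01. Among those higher, Ndufaf3 had differences of only 0.06, 0.001 and 0.02 in lines 1, 2 and 3. For Ndufaf4, the other tested probe set was lower in all 3 lines, with a change of -0.38 ± 0.25 (adjusted p = 0.421 in limma with dose only and 0.187 with the block).

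**Figure D3:**
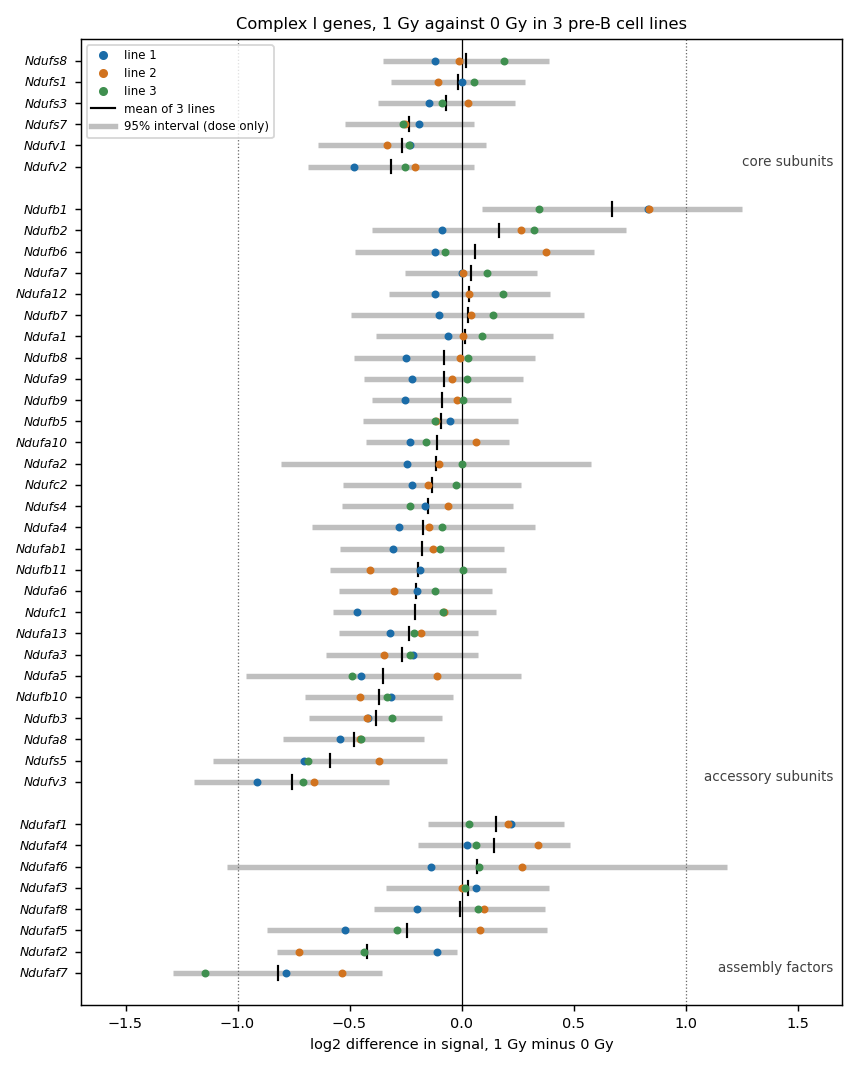
Log2 difference in signal, 1 Gy minus 0 Gy (horizontal axis), for the 42 complex I genes (rows), sorted within core subunits, accessory subunits and assembly factors, with a point per line, a tick at the mean of 3 lines and a grey bar for the 95% interval of the dose-only limma fit. Dotted lines mark a 2-fold change, and Ndufb1 at 0.67 and Ndufaf7 at -0.82 are the extremes.

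Ndufv3, a small accessory subunit of the NADH-oxidizing module, had signals of 1809, 1752 and 1496 in irradiated cells of lines 1, 2 and 3, against 3407, 2763 and 2440.3 in mock cells. Every irradiated array lay below every mock array. The log2 change was -0.76 ± 0.18 (SE, n = 3 each; adjusted p = 0.0728 in limma with dose only and 0.0247 with the line as a block), or 0.591 of the mock signal with a 95% interval of 0.437 to 0.800. The flavoprotein Ndufv1 and the iron-sulfur protein Ndufv2, which form the same module, had changes of -0.27 ± 0.15 and -0.31 ± 0.15 (adjusted p = 0.368 and 0.286 with dose only, 0.164 and 0.146 with the block). All 3 Ndufv genes were lower in each line, and the signals of Ndufv2 and Ndufv3 separated the doses. The brightest probe set of Ndufv1 overlapped between doses, while its 2 other probe sets did not, with changes of -0.39 ± 0.12 and -0.43 ± 0.14 (adjusted p = 0.127 and 0.150 with dose only, 0.0772 and 0.0927 with the block).

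Ndufaf7, a complex I assembly factor, was dim, at 156, 211 and 145 in irradiated cells, against 269, 306 and 322 in mock cells. The groups did not overlap, and line 3 differed most. Its log2 change was -0.82 ± 0.19 (adjusted p = 0.0706 with dose only and 0.0361 with the block). Ndufs5, an accessory subunit on the intermembrane space side, had signals of 2479, 3858 and 3237 in irradiated cells, against 4042, 4987 and 5214 in mock cells. All irradiated arrays again lay below all mock arrays, and line 1 was lowest at both doses. Its log2 change was -0.59 ± 0.21 (adjusted p = 0.175 with dose only and 0.0465 with the block). A further probe set, which the platform assigns to Ndufs5 and to its pseudogene Ndufs5-ps, had a change of -0.44 ± 0.16 that did not pass either fit (adjusted p = 0.170 and 0.0793), so how much signal the pseudogene adds is not known.

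Ndufa8, another accessory subunit of the intermembrane space side, had signals of 2759, 3132 and 2903 in irradiated cells, against 4022, 4288 and 3965 in mock cells. The spread within each dose was small and the doses were far apart relative to it. The log2 change was -0.48 ± 0.13 (adjusted p = 0.0941 with dose only and 0.04998, just under the threshold, with the block). Ndufb1, a small membrane-arm subunit, moved the other way. It had signals of 3035, 4063 and 2399.6 in irradiated cells, against 1704, 2274 and 1891 in mock cells. The groups did not overlap, but irradiated line 3 lay close to mock line 2. Its log2 change was 0.67 ± 0.24 (adjusted p = 0.166 with dose only and 0.0494 with the block), or 1.59 times the mock signal with an interval of 1.07 to 2.38.

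These 5 calls of the block fit depended on settings. With quantile normalization and the block, Ndufaf7, Ndufv3, Ndufs5 and Ndufa8 were called and Ndufb1 was not, and with arrays scaled to a common median and the block, Ndufaf7, Ndufv3 and Ndufb1 were called. When line 1 or line 2 was left out of the block fit, 0 of all 21762 probe sets passed, and without line 3 there were 169 higher and 130 lower, none of them a member.

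**Figure D4:**
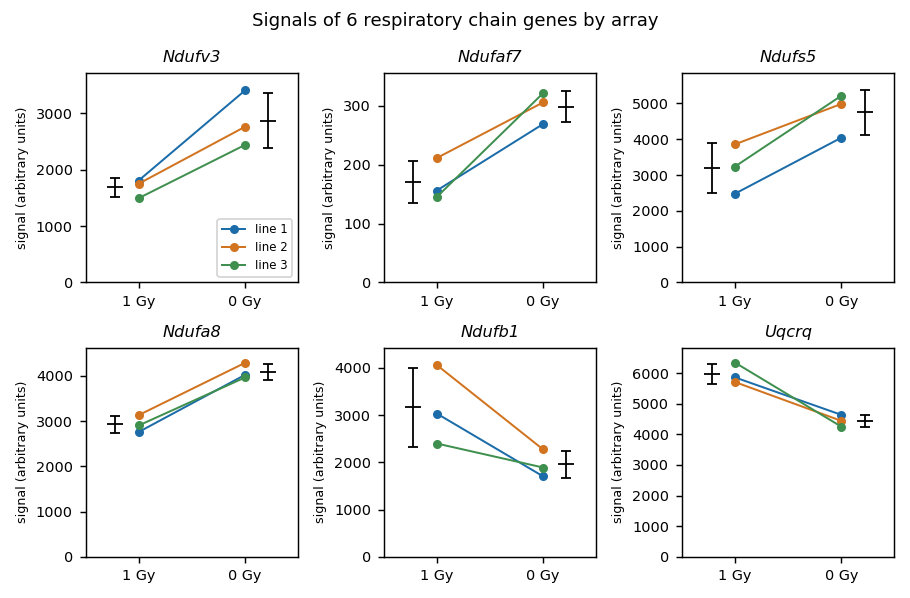
Signal in arbitrary units (vertical axes, starting at 0) of 6 respiratory chain genes on irradiated (1 Gy) and mock (0 Gy) arrays, with the 2 arrays of a line joined and the mean ± SD of 3 arrays beside the points. Ndufv3, Ndufaf7, Ndufs5 and Ndufa8 are lower and Ndufb1 and Uqcrq higher on every irradiated array than on any mock array.

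The other complex I genes whose irradiated arrays all lay below the mock arrays were Ndufa3, Ndufa13, Ndufaf2, Ndufb3, Ndufb10, Ndufc1, Ndufs7 and Ndufv2, with changes of -0.42 (Ndufaf2) to -0.21 (Ndufc1), none of which passed either fit. Ndufb3, a membrane-arm subunit, was at 2870.4, 2851 and 2839 in irradiated cells and 3839, 3818 and 3519.6 in mock cells. Ndufs7, a core iron-sulfur subunit, had a smaller difference with little spread within a dose, at 3023 ± 67.8 in irradiated cells and 3554 ± 20.9 in mock cells (SD, n = 3 each). Its change of -0.23 had an adjusted p of 0.305 with dose only and 0.201 with the block in limma. Ndufaf1, an assembly factor, averaged 1140.1 ± 35.9 in irradiated cells and 1025 ± 56.4 in mock cells, a change of 0.15 (adjusted p = 0.525 and 0.390). Ndufa4, named for complex I and now described as a complex IV subunit, had a change of -0.17 ± 0.20 (adjusted p = 0.678 and 0.343). By its name it is counted here with complex I, among the accessory subunits that were lower in all 3 lines. Ndufa11, Ndufs6 and Ndufb4, whose bright probe sets the platform assigns to several genes, are left out of these counts. That of Ndufa11 was higher in all 3 lines without overlap of the doses (0.31 ± 0.15, adjusted p = 0.283 and 0.127). That of Ndufs6 was lower in all 3 (-0.16 ± 0.25), and those of Ndufb4 had changes of -0.30 and -0.17.

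Ndufs4, an accessory subunit needed for a stable NADH-oxidizing module, showed how far probe sets of a gene can differ. Its brightest probe set had signals of 2520.3, 2464 and 2017 in irradiated cells and 2818, 2574 and 2365 in mock cells, a change of -0.15 ± 0.16 (adjusted p = 0.624, and 0.388 with the block). Another, dim probe set had a change of -0.63 ± 0.26 that passed only with the block (adjusted p = 0.217 and 0.0466), and a further one had 0.32 ± 0.17 (adjusted p = 0.337 and 0.214). Over all members, 47 genes had several tested probe sets, and in 30 of them all had the same sign. Among probe sets averaging 1000 or more, this held for 25 of 34 genes, with a median range of 0.10 between a gene's probe sets.

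Complex II, succinate dehydrogenase, links the chain to the citric acid cycle and had no called member. Sdha, the flavoprotein, had a change of -0.01 ± 0.13 in its brightest probe set, with a mixed sign between lines (adjusted p = 0.974). Another Sdha probe set had signals of 1567, 1627 and 1619 in irradiated cells, against 2244, 2311 and 2164 in mock cells. It did not overlap between doses and had a change of -0.48 ± 0.12, just outside the threshold with the block (adjusted p = 0.0827 with dose only and 0.0502 with the block), so the probe sets of this gene disagree. Sdhb, the iron-sulfur subunit, had signals of 8167, 7491 and 8177 in irradiated cells and 7777, 6843 and 6154 in mock cells. Its doses overlapped, and the change was 0.20 ± 0.15 (adjusted p = 0.470, and 0.316 with the block). Of the membrane anchors, Sdhc had a change of -0.28 ± 0.26 and was lower in each line (adjusted p = 0.593 and 0.165), and Sdhd had one of 0.04 ± 0.15 (adjusted p = 0.917 and 0.850).

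Complex III, the cytochrome bc1 complex, held the largest positive change outside complex I. Uqcrq, a small subunit beside cytochrome b, had signals of 5858, 5707 and 6342 in irradiated cells, against 4636, 4439 and 4251 in mock cells. The groups were well apart, yet the change of 0.43 ± 0.13 did not pass (adjusted p = 0.119 with dose only and 0.0761 with the block). Uqcrfs1, the Rieske iron-sulfur protein, averaged 6392 ± 530.0 in irradiated cells and 5057 ± 431 in mock cells, also without overlap, with a change of 0.34 ± 0.14 (adjusted p = 0.227 and 0.103). Uqcr11, one of the smallest subunits, lay on the other side, at 3109, 3438 and 2854 in irradiated cells and 4551, 3993 and 3736 in mock cells. Its doses did not overlap either, and its change was -0.38 ± 0.15 (adjusted p = 0.199 and 0.103). The core proteins Uqcrc1 and Uqcrc2 had changes of 0.08 ± 0.14 and -0.06 ± 0.18 (adjusted p = 0.788 and 0.879).

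**Figure D5:**
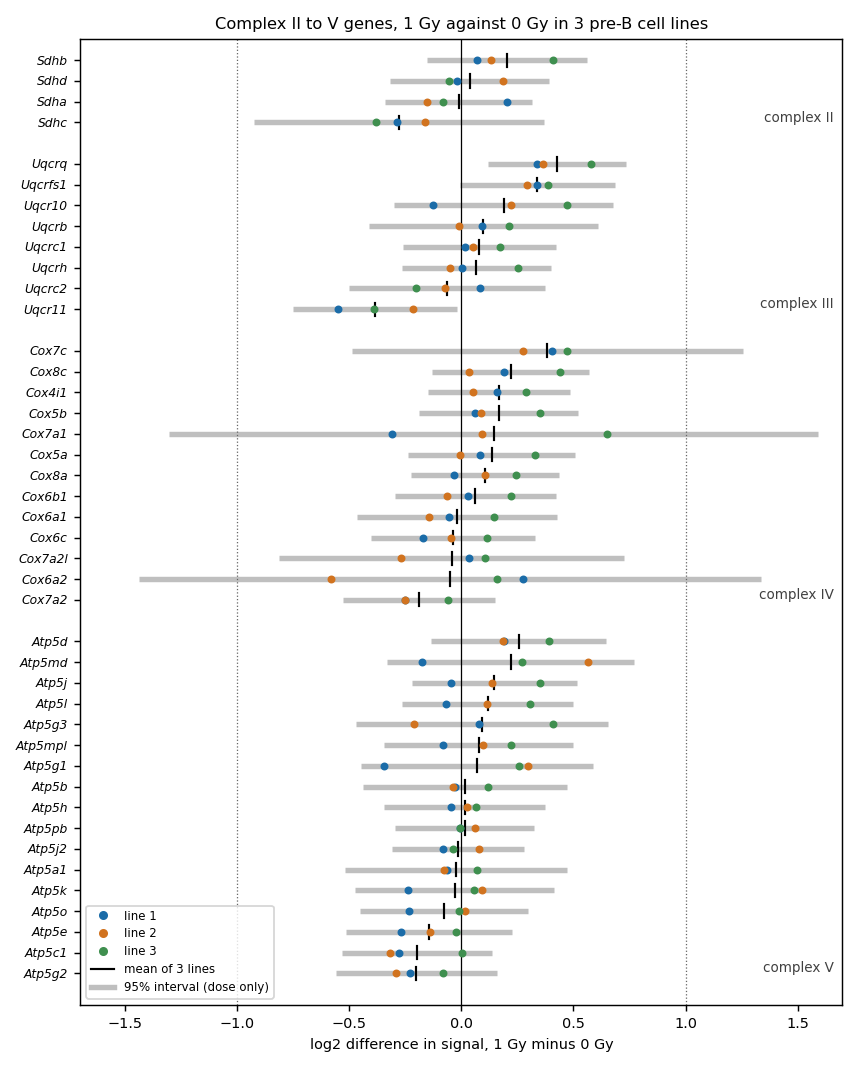
Log2 difference in signal, 1 Gy minus 0 Gy (horizontal axis), for the 42 genes of complexes II to V (rows), drawn as for complex I with a point per line, a tick at the mean and a grey bar for the 95% interval of the dose-only limma fit. Uqcrq at 0.43 and Uqcr11 at -0.38 are the extremes, and the wide bars of Cox7a1 and Cox6a2 belong to dim probe sets that differ between lines.

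Complex IV, cytochrome c oxidase, had no member whose doses separated. Cox7c had the largest change, 0.38 ± 0.36, from signals of 684, 381 and 779 in irradiated cells and 517, 315 and 561 in mock cells (adjusted p = 0.586, and 0.0877 with the block). It was higher after irradiation within each line, while line 2 was low at both doses. Cox7a2, the widely expressed isoform of its subunit, had the lowest change, -0.19 ± 0.14 (adjusted p = 0.485 and 0.309). Cox4i1, also a widely expressed isoform, averaged 17041 ± 1234 in irradiated cells and 15160 ± 560 in mock cells, a change of 0.17 (adjusted p = 0.509 and 0.362). Isoforms known from muscle or testis were dim, with changes of -0.05 ± 0.57 for Cox6a2, 0.14 ± 0.59 for Cox7a1 and 0.22 ± 0.14 for Cox8c. Cox6a2 and Cox7a1 reached 100 on 4 and 3 of the 6 arrays. The isoform genes Cox4i2, Cox6b2, Cox7b2, Cox8b and Ndufa4l2 and a probe set assigned to Ndufb4 alone stayed below 100, with highest signals of 38.5, 35.004, 18.5, 12.7, 18.3 and 60.4. Other Ndufb4 probe sets, which the platform also assigns to Ndufb4b and Ndufb4c, were bright, with highest signals of 3250 and 3121.

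Complex V, the ATP synthase, had the narrowest range of changes of the 5 complexes. Its 17 changes ran from -0.20 to 0.26, and the 95% interval of every one lay inside 2-fold. Its F1 head and central stalk had a median of -0.02, the other Fo and stalk genes one of 0.02. Atp5d, the delta subunit of the central stalk, was the highest, at 9643, 7934 and 8685 in irradiated cells and 8439.7, 6987 and 6630.1 in mock cells. Its doses overlapped through mock line 1, and the change was 0.26 ± 0.16 (adjusted p = 0.408 and 0.195). The catalytic subunit Atp5b had a change of 0.02 ± 0.19 and its partner Atp5a1 one of -0.02 ± 0.20. Atp5g1, Atp5g2 and Atp5g3, which encode the same mature c subunit of the rotor with different import sequences, had changes of 0.07 ± 0.21, -0.20 ± 0.15 and 0.09 ± 0.23. Of these, Atp5g2 alone kept its sign in all 3 lines (adjusted p = 0.476 and 0.277). Another, dim Atp5g2 probe set was higher in all 3 lines, with a change of 0.57 ± 0.35 (adjusted p = 0.401 and 0.0532), so the probe sets of this gene disagree.

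Differences between the lines were assessed in the same way. A limma F test for the line passed for 2 members (8.60% of all probe sets did), Ndufaf6 and Cox7c (adjusted p = 0.0362 and 0.0453). For Ndufaf6, an assembly factor, line 3 was low at both doses, with 211, 215 and 98.8 in irradiated cells and 232, 178 and 93.7 in mock cells. The median spread of the line means was 0.24 on the log2 scale, against 0.43 for all probe sets and 0.30 for the 4288 tested genes with a mean signal of 1000 or more. As deposited, the direction of the whole group differed by line: 60 of 84 differences were negative in line 1, 46 in line 2 and 35 in line 3. Of all 21762 probe sets, 11892, 11825 and 12236 were negative. The group's direction by line also depended on the scaling. Its medians in lines 1, 2 and 3 were -0.12, -0.02 and 0.03 as deposited. They were -0.19, -0.05 and -0.10 after quantile normalization, and 0.01, -0.02 and 0.06 with a common median.

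Promoters of the members were read from RefSeq windows on mouse build GRCm38.p6, from 250 bases before to 50 after a gene's start, and 70 of 84 genes matched with 75 windows. Nuclear respiratory factor 1 (NRF1), the ETS factor GABP (also called NRF-2) and YY1 are known to act at promoters of this kind. Exact matches on either strand were counted for the NRF1 palindrome (the longest run of capitals in the Cox6a1 and Atp5k windows), CCGGAAG (ETS), AAGATGGC (YY1) and GGGCGG (Sp1), none of which contains another. The NRF1 letters were in 8.0% of member windows (0.971% of all 32851 windows), the ETS letters in 25.3% (8.86%), the YY1 letters in 13.3% (2.75%) and the Sp1 letters in 44.0% (35.7%). Among windows of genes on the array these shares were 1.54%, 13.0%, 3.39% and 52.4%. A match is a description of the letters and not of binding.

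Within complex I, the 20 genes that were lower in all 3 lines had 21 windows, of which 0 held the NRF1 letters, 0 the ETS letters and 4 the YY1 letters. The other complex I genes had 19 windows, of which 2, 6 and 3 did. Outside complex I, among members lower in all 3 lines, Atp5g2 held the NRF1 letters and Uqcr11 and Atp5e held the ETS letters. Cox7a2 held neither, and Sdhc had no window. These small counts were not tested. The windows of the 5 genes called in the block fit are printed from 180 bases before to 30 after the start, as letters of the members that moved, with those of Cox6a1 and Atp5k added as examples that hold both NRF1 and ETS letters and whose signals hardly differed between doses (changes of -0.02 ± 0.18 and -0.03 ± 0.18). Capitals mark matches to any of the 4 motifs.
Ndufv3, chr17:31519935-31520144, plus strand: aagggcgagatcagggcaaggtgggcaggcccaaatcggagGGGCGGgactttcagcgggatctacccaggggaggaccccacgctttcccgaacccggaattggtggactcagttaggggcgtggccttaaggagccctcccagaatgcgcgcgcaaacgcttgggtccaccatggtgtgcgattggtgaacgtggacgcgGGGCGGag
Ndufaf7, chr17:78936955-78937164, plus strand: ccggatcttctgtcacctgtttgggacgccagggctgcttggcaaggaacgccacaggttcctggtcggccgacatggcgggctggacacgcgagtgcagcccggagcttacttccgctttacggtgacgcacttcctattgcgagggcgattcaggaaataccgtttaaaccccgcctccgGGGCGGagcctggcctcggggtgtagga
Ndufs5, chr4:123718157-123718366, minus strand: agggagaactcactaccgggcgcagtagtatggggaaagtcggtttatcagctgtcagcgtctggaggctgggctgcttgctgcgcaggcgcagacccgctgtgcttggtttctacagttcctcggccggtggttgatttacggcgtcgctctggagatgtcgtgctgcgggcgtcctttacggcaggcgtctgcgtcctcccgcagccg
Ndufa8, chr2:36049309-36049518, minus strand: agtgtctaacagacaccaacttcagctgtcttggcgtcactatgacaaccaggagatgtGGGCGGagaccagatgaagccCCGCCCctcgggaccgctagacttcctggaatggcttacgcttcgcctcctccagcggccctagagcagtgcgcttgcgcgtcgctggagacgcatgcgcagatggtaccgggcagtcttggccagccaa
Ndufb1, chr12:101975709-101975918, minus strand: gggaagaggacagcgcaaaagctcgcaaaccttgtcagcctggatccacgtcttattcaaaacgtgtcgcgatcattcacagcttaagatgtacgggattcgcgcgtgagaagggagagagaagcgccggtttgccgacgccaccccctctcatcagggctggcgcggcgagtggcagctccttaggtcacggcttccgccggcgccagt
Cox6a1, chr5:115348929-115349138, minus strand: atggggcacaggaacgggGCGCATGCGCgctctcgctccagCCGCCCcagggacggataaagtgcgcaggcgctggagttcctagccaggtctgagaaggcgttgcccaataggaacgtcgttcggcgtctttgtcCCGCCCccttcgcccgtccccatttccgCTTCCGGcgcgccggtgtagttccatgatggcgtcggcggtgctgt
Atp5k, chr5:108434370-108434579, minus strand: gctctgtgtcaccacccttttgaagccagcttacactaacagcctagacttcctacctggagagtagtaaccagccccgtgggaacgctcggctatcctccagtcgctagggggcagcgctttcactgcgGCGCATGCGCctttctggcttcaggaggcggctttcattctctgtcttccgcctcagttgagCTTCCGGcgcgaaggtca
Ndufs5 and Ndufb1, which lay on opposite sides, have no exact match in these stretches, and Ndufv3, Ndufaf7 and Ndufa8 have exact Sp1 letters alone. Near matches were not counted, among them runs in Ndufs5 and Ndufa8 that differ from the NRF1 palindrome by a base. In Cox6a1 the NRF1 letters start 162 bases and the ETS letters 16 bases before the start, and in Atp5k they start 50 bases before and at base 13 after it.

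Genes that build the chain without being named for it included a change larger than that of any member. Outside the naming rule, 38 genes were listed as assembly factors, with Atpif1, an inhibitor of ATP synthase, and Lrpprc, an RNA-binding protein, counted among them. Of these 38, 1 fell with dose only, and 1 rose and 6 fell with the line as a block (6.78% and 11.5% of all probe sets). Their median was -0.22, with 24 of 38 lower in all 3 lines (63.2%, against 41.3% of all tested genes and 34.5% of probe sets) and 6 higher (15.8%, against 23.7% and 24.7%). Ecsit, which acts in complex I assembly together with Ndufaf1 and also in Toll-like receptor signalling, fell to 209.7, 197 and 168 in irradiated cells, against 832, 1027 and 740.5 in mock cells. The groups were far apart, with a change of -2.17 ± 0.18 (adjusted p = 0.0103 in limma with dose only). Sdhaf1, which helps to insert iron-sulfur clusters into Sdhb, lay the other way at 3090, 3797 and 7130 in irradiated cells, against 1108, 1035 and 2244 in mock cells. Its change of 1.67 ± 0.43 passed with the block and not with dose only (adjusted p = 0.0110 and 0.0902). Cmc2, a complex IV assembly factor, had a change of -1.06 ± 0.28 (adjusted p = 0.0480 with the block and 0.0919 with dose only). Surf1, also of complex IV, had one of -0.66 ± 0.13 (adjusted p = 0.0316 with the block), and the calls of Cmc1, Sdhaf3 and Sdhaf4 were likewise lower and made with the block alone.

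Of 13 genes for cytochrome c and coenzyme Q synthesis, 0 passed with dose only (1.93% of all probe sets higher and 2.55% lower), and 1 rose and 3 fell with the block (6.78% and 11.5%). At an unadjusted p of 0.05 with dose only there were 1 higher and 3 lower, against 23% of all probe sets in either direction. Coq9, a lipid-binding protein of coenzyme Q synthesis, had a change of -0.82 ± 0.24, at 464, 673 and 533 in irradiated cells and 738, 1169 and 1052 in mock cells (adjusted p = 0.116 with dose only and 0.0228 with the block). Pdss2, which helps make the isoprenoid tail, had one of -0.67 ± 0.23 (adjusted p = 0.157 and 0.0477). Coq2, which joins that tail to the ring, had one of -0.49 ± 0.33, with overlapping doses (adjusted p = 0.438 and 0.0487). Coq8a, an atypical kinase of the same pathway, had one of 0.60 ± 0.19 (adjusted p = 0.132 and 0.0447). Cycs, cytochrome c itself, and Cyc1, the cytochrome c1 of complex III, had changes of -0.04 ± 0.18 and 0.14 ± 0.13 (adjusted p = 0.931 and 0.599). The 13 genes encoded by mitochondrial DNA have no probe set under their names in the platform's annotation, so the chain's mitochondrial subunits were not analysed here.

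Of 17 regulators of respiratory chain genes, 1 rose with dose only (1.93% of all probe sets), and 3 rose and 1 fell with the block (6.78% and 11.5%). Gabpb1, the beta subunit of GABP, rose to 1561, 1219 and 1364 in irradiated cells, against 807, 711 and 846 in mock cells, without overlap and with a change of 0.81 ± 0.16 (adjusted p = 0.0492 in limma with dose only and 0.0222 with the block). Its DNA-binding partner Gabpa had a change of 0.21 ± 0.14, and Nrf1 one of 0.41 (adjusted p = 0.411 and 0.192 with dose only). Pprc1, a coactivator related to PGC-1, had a change of 0.72 ± 0.16 (adjusted p = 0.0695 with dose only and 0.0467 with the block), and Creb1, a factor activated by cyclic AMP signalling, had 0.71 ± 0.15 (adjusted p = 0.0613 and 0.0375). Tfb1m, which methylates the mitochondrial small ribosomal RNA, had -0.84 ± 0.19 (adjusted p = 0.0717 and 0.0181). Tfam, which packages and transcribes mitochondrial DNA, had -0.04 (adjusted p = 0.928).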

How the data were processed

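Signals of 6 Affymetrix Mouse 430 2.0 arrays were used. The intensity values deposited by the authors are linear and, per the submitters' processing notes, come from MAS5. Each array is scaled to a mean of 500 after 2% of probe sets is trimmed at either end. The study's methods name RMA, quantile normalization, a minimum signal of 100 and ANOVA. RMA could not be repeated from these signals.

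Signals under 1 were set to 1 and log2 values taken. Control probe sets (64) were dropped, and the 21762 of 45037 others that reach 100 on at least 1 array were tested with limma (version 3.58.1, R 4.3.3) and Benjamini-Hochberg adjustment over all of them (call: adjusted p under 0.05). Dose was the only factor, since the ANOVA names no other. The fit with cell line as a block is given beside it. The series' design ties the replicate number to a line, and deviations of same-numbered arrays correlated at 0.668 to 0.781, those of other pairs at -0.495 to -0.0525. Error in the dose-only tests is thus the spread among lines. In the fit with the block it is how far the dose difference varies between lines. The 3 arrays per dose limit the precision. Gene names come from the platform's annotation (34945 probe sets with 1 gene, 932 with several, 9160 not listed), and the 84 symbols matched RefSeq by gene number.

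The members, gene lists and tests were chosen with earlier results of these data known. Named were the genes called in either fit, the highest and lowest of each complex, complex II, the c-subunit genes, dim isoforms, genes with a line difference or discordant probe sets, and up to 3 called genes per list. Ndufv1, Ndufv2, Ndufb3, Ndufs7, Ndufaf1, Ndufa4, Uqcrfs1, Uqcrc1, Uqcrc2, Cox4i1, Cox6a1, Atp5a1, Atp5b, Atp5k and the uncalled list genes were chosen after their values were seen. Alternatives varied the scaling, filter, offset, floor, variance prior, probe set averaging and test, and left out arrays or lines.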

Additional observations from a re-analysis of the deposited data

How the results depend on the processing

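In the dose-only fit, 0 members were called higher or lower, with 419 higher and 556 lower among all probe sets. With the cell line as a replicate block the members were 1 higher and 4 lower, and all probe sets 1475 and 2499. A trend in the prior variance gave 2 members lower (Ndufv3 and Ndufa8) and 690 and 825 probe sets. The methods' test at its own thresholds gave 2 members lower (Ndufaf7 and Ndufv3) and 1121 and 1729 probe sets, and after Benjamini-Hochberg adjustment 2 others lower (Ndufb3 and Ndufs7) and 172 and 180 probe sets. Without the filter on dim probe sets, 1 probe set was called higher and 0 lower, with a median change of -0.0362 over all. With signals under 100 set to 100 there were 635 and 841. A common median gave 366 and 274, a median of 0.0617 for complex II and -0.00624 over all. Quantile normalization gave medians of -0.12 for the members, -0.11 for complex V and -0.0134 over all. Each of these settings was varied alone, and the cause of the differences in counts was not tested.

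Leaving out 1 array or 1 line gave 0 to 169 probe sets called higher and 0 to 130 lower: without irradiated line 1 there were 7 and 3, without irradiated line 2 0 and 0, without irradiated line 3 11 and 2, without mock line 1 61 and 33, without mock line 2 0 and 0, and without mock line 3 28 and 12. Without any 1 line at both doses there were 0 and 0 with dose only. No member was called in any of these fits. The changes of some members with values near 0 changed sign in this way: Atp5g1 ran from -0.0828 to 0.28, Atp5g3 from -0.10 to 0.24, Sdha from -0.12 to 0.0601, Sdhd from -0.0380 to 0.12, Cox6a2 from -0.46 to 0.53, Cox7a1 from -0.25 to 0.68 and Ndufaf6 from -0.30 to 0.44. The medians ran from -0.0268 to 0.0659 for complex II, from -0.0685 to 0.11 for complex V and from -0.0698 to -0.0359 over all probe sets. By setting, Atp5g3 was -0.0778 and Cox6a2 0.0649 after quantile normalization, Sdha 0.0377 with a common median, Cox6a2 0.14 and Cox7a1 -0.0127 with the floor of 100, and Atp5g2 0.18 as a mean of its probe sets. Among the members and lists, the calls that the block changed are those given with their genes. The standard errors were largest for the dim Cox7a1, Cox6a2 and Ndufaf6 (0.59, 0.57 and 0.46).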

Other observations

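Of 17 citric acid cycle genes, 0 passed with dose only, where 1 was higher and 2 lower at an unadjusted p of 0.05 (23% of all probe sets in either direction). With the line as a block 2 fell, near the 11.5% of all probe sets called lower in that fit. In all 3 lines 10 were lower (58.8%, against 41.3% of all tested genes) and 3 higher (17.6%, against 23.7%). Their median was -0.18, against -0.11 over all tested genes. Idh2, the mitochondrial NADP-dependent isocitrate dehydrogenase, had signals of 1909, 1715 and 1455 in irradiated cells, against 3363, 3843 and 2684 in mock cells, a change of -0.95 ± 0.19 (adjusted p = 0.0544 in limma with dose only and 0.0187 with the block). Fh1, fumarase, had 2116, 1589 and 1673 in irradiated cells, against 4281, 2531 and 3527 in mock cells, a change of -0.92 ± 0.24 (adjusted p = 0.0914 and 0.0221). Neither gene's doses overlapped. Of 16 mitochondrial import and carrier genes, 0 passed in either limma fit (4.48% of all probe sets with dose only and 18.3% with the block). At an unadjusted p of 0.05, 1 was higher and 2 lower with dose only (23% of all probe sets in either direction). With the block these were 2 and 2 (36.6%). In all 3 lines 5 were lower (31.25%, against 41.3% of all tested genes) and 5 higher (31.25%, against 23.7%), with a median of -0.00.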
